A study of Mus musculus with 6 samples.

Results

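The genes for BATF, the AP-1 proteins and their IRF partners were examined as loci of open chromatin in T helper cells. The 10 genes were Batf, Batf3, Irf4, Irf8, Jun, Junb, Jund, Fos, Fosl1 and Fosl2, out of 21951 protein-coding genes, and all peaks in each gene body and 50 kb on either side were taken. In these windows lay 149 regions, of 236017 obtained by joining the peaks of all libraries that overlapped or touched. Of the 149 regions, 10 lay over the promoter of a member gene, 18 over the promoter of another gene and 121 outside promoters, here called distal. As promoter counted the stretch that begins 1000 bp before an annotated start and ends 100 bp after it.

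BATF is a basic leucine zipper protein that has no activation domain of its own and pairs with a JUN protein. FOS proteins also pair with JUN proteins, and such pairs, named AP-1, bind the short DNA word TGANTCA. The interferon regulatory factors IRF4 and IRF8 bind DNA weakly on their own and join BATF and JUN at composite elements, where a site for the IRF lies beside the AP-1 word. In T helper cells BATF and IRF4 are induced by antigen receptor signalling and are known to act in Th2, Th9 and Th17 cells.

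The study asked how BATF, a factor shared between T helper subsets, acts on different cytokine genes in each. Naive CD4+CD62L+ T cells of C57BL6/J mice, labelled as spleen (spleen and lymph nodes in the methods), were activated in culture with anti-CD3 and anti-CD28. Th2 cells received IL-4, IL-2 and anti-IFNγ. Th9 cells received the same agents plus TGF-β1. Th17 cells received IL-6, TGF-β1, IL-23 and IL-1β with anti-IFNγ, anti-IL-4 and anti-IL-2, so the Th17 cultures differed from the others in IL-2 and IL-4 as well as in the cytokines added. Each subset had 2 ATAC-seq libraries, labelled replicate 1 and replicate 3, with no gene deleted or added. In ATAC-seq a transposase cuts and tags open DNA, and the peaks of each library were called by the authors on that library alone. The labels do not say whether the libraries came from separate mice or cultures, so p-values measure only the spread between these libraries, which may be technical.

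The lists held 100317 to 142213 peaks that covered 80.7 to 118 Mb, with between 101 (Th17 replicate 3) and 132 (Th9 replicate 3) peaks in the 10 windows. The relative number of fragments behind a list came from its fold enrichments and p-values, divided by the length of its shortest peak. It was 1 in Th9 replicate 1, 1.94 in Th9 replicate 3, 1.78 and 2.24 for Th2 and 2.34 and 2.47 for Th17. Before this division Th2 replicate 3 was above Th17 replicate 1, at 15.2 against 14.4 background fragments. The lowest fold enrichment called was 2.11 in Th9 replicate 1 and 1.71 to 1.83 in the others. The promoters of Cd3e and Cd3d had a peak in all 6 libraries and that of Cd4 in 4, without Th9 replicate 1 and Th17 replicate 1. The Il9 and Il4 promoters had a peak in the 4 Th9 and Th2 libraries, Il13 in the 2 Th2 libraries, Il17f and Il23r in the 2 Th17 libraries, Il17a in 3, and Il5 and Gata3 in all 6. By percentile of fold enrichment within its own list, the Il9 peak was at 88.6 and 90.7 in Th9 but at 37.1 and 44.4 in Th2. The Il4 peak was at 89.5 and 92.3 in Th9 and at 87.8 and 88.3 in Th2. The paper describes the Il9 promoter peak as absent in Th2 and Th17 cells. Of the markers of other cells, Ms4a1, Cd79a, Csf1r, Lyz2, Itgam and Cd8a had a promoter peak in 0 libraries, Cd14 in 3 and Cd8b1 in 6, and their part in the results was not tested. A library's list gives no share of cells, so fewer cells with an open site and a less open site in each cell cannot be told apart.

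The promoters of all 10 genes were open in all 6 libraries, beside 58.7% of all protein-coding genes. Strength was read from the fold enrichment of the strongest peak over the promoter, as its percentile within its own list, so that 100 is the strongest peak of that library. Jun was the highest of the 10 in every library, at 98.8 and 97.7 for the Th9 libraries, 99.6 and 99.4 for Th2 and 98.5 and 98.6 for Th17. Fosl1 was at 80.4 and 78.8 for the Th9 libraries, 75.3 and 78.9 for Th2 and 78.6 and 77.9 for Th17. It was the lowest in the Th9 and Th2 libraries, while Batf3 was below it in both Th17 libraries and Irf4 was the lowest in Th17 replicate 3. Jun, Junb, Jund and Fosl2 stood above the median called promoter of their library (percentile 90.8 to 93.2) in every library, and the ranges of Junb, Jund and Fosl2 overlapped each other. With a fold enrichment of at least 4 required, 6 of the 10 promoters were still called in all libraries. Under it the Batf promoter was lost in Th2 replicate 1, those of Batf3 and Irf4 in both Th17 libraries, and that of Fosl1 in all but Th2 replicate 3.

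**Figure D1:**
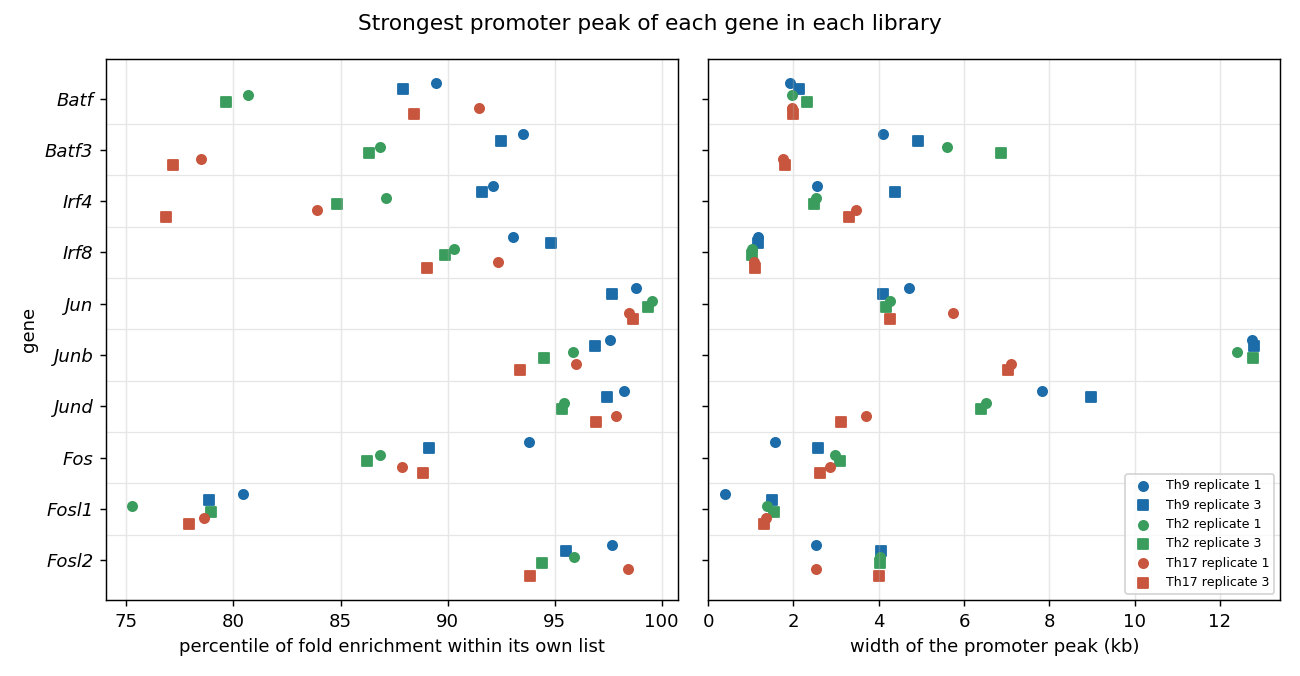
Each row is a gene and each point a library (blue Th9, green Th2, red Th17, circle replicate 1, square replicate 3). The left panel gives the percentile of fold enrichment of the strongest promoter peak within its own list and the right panel its width in kb. Batf3 and Irf4 were lowest in Th17, Batf was lowest in Th2, and the Batf3, Junb and Jund peaks were narrower in both Th17 libraries than in the other 4.

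The peak over the Batf3 promoter was 4090 and 4929 bp wide in Th9, 5593 and 6871 bp in Th2, and 1753 and 1813 bp in Th17. Over Junb the width was 12753 and 12799 bp for the Th9 libraries, 12401 and 12763 bp for Th2 and 7101 and 7032 bp for Th17. At Jund it was 7826 and 8984 bp for the Th9 libraries, 6516 and 6401 bp for Th2 and 3691 and 3116 bp for Th17. In Th17 each of these joined regions held more than 1 peak, as did Jund in every other library and Batf3 in Th9 replicate 1. Together the Th17 peaks covered 2704 and 3046 bp at Batf3, 10302 and 10280 bp at Junb and 5943 and 5033 bp at Jund. In the Th9 and Th2 libraries peaks covered 4741 to 6871 bp, 12401 to 12799 bp and 7346 to 9642 bp of these regions. These 3 genes had a wider promoter peak in all 4 Th9 and Th2 libraries than in both Th17 libraries. The share of all genes with this joint order was not worked out. In all, 4 of 10 members were wider in both Th9 than in both Th17 libraries (background 17.2% of the 12886 genes with a promoter peak in all 6), the fourth being Irf8 at 1172 and 1164 bp against 1080 and 1109 bp, and 1 was narrower, Fos (background 24.6%). Between Th2 and Th17, 6 of 10 members were wider in Th2 (background 45.5%), a share near that of all promoters, and 2, Irf4 and Irf8, were narrower (background 4.96%). Th9 was wider than Th2 at 3, Irf4, Irf8 and Jund (background 3.28%), and narrower at 2, Batf3 and Fos (background 45.5%). At Irf4 the width was 2541 and 4389 bp in Th9 against 2527 and 2479 bp in Th2, a gap far below the spread between the Th9 libraries. The Irf8 peak varied little, from 1036 bp in Th2 to 1172 bp in Th9, and that of Batf ran from 1911 to 2326 bp. At Fosl1, Th9 replicate 1 had a peak of 395 bp where the other libraries had 1317 to 1541 bp.

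Across the 149 regions, sharing between subsets was uneven. In all 6 libraries 78 regions were called (52.3%), beside 21.4% of all regions. Of the 121 distal regions, 51 were called in all 6 libraries (42.1%, background 17.2% of 220294 distal regions). Another 11 (9.09%, background 2.06%) were called in both Th9 and both Th2 libraries and in neither Th17 library. None of the 10 regions over member promoters or 18 over other promoters had this pattern, beside 1.26% of all 15723 promoter regions. Called in both libraries of 1 subset and in no other library were 3 distal regions for Th9 (2.48%, background 1.38%). There were 2 for Th2 (1.65%, background 3.04%) and 0 for Th17 (background 1.79%). Th9 with Th17 had 0 (background 0.312%) and Th2 with Th17 had 1 (0.826%, background 1.63%). These counts were small and were not tested. The 11 regions of Th9 and Th2 lay 4 at Irf4, 3 at Batf, 2 at Jun, 1 at Batf3 and 1 at Irf8, with 0 at Junb, Jund, Fos, Fosl1 and Fosl2. With fold enrichment of at least 4 the count was 4, and with any 1 library left out it was 11 to 14. Peaks in 1 library only made up 31 of the 149 regions (20.8%, background 37.2%).

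**Figure D2:**
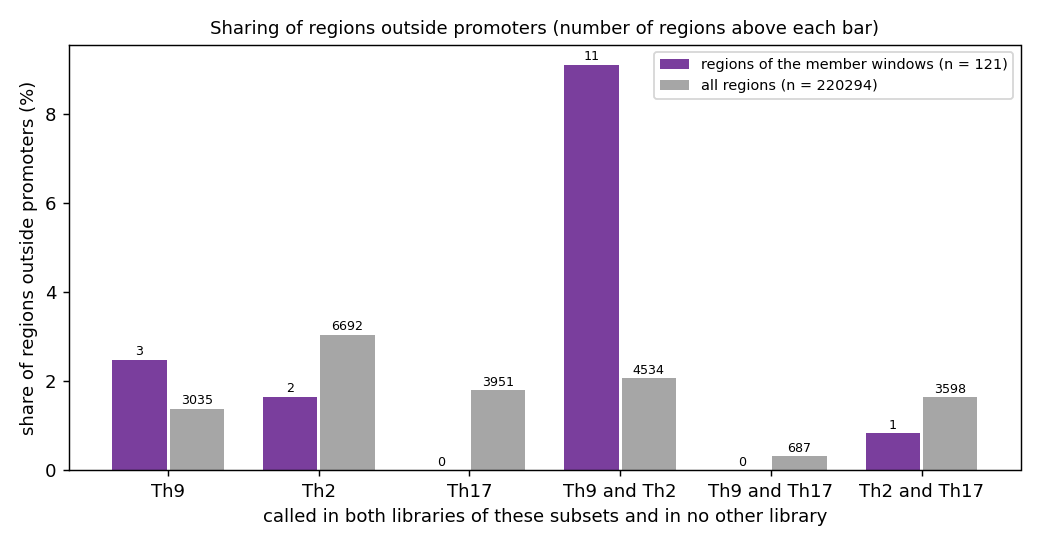
Bars give the share of regions outside promoters, in percent, called in both libraries of the subsets named and in no other library, for the windows of the 10 genes (purple) and for all regions (grey), with the number of regions above each bar. The bar for Th9 and Th2 is the tallest of the gene windows (9.09%, 11 regions) and 2.06% among all regions.

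Batf encodes the factor at the centre of the study and lies on chromosome 12 (85686669 to 85709087, plus strand). Its promoter stood at percentiles 89.5 and 87.9 for the Th9 libraries, 80.7 and 79.7 for Th2 and 91.4 and 88.4 for Th17. Th2 was the low subset and its libraries did not overlap with the rest. To test such differences, the log2 fold enrichment of the strongest peak was quantile normalised over the 50493 regions called in all 6 libraries and fitted with limma, with Benjamini-Hochberg adjustment over all of them and n = 2 libraries for each subset. On this scale the Batf promoter was 1.78 and 1.90 in Th2 against 2.54 and 2.48 in Th17, a difference of -0.67 (SE 0.180, limma adjusted p = 0.0305). Between Th9 and Th17 the difference was -0.14 (SE 0.180, limma adjusted p = 0.740). The call between Th2 and Th17 was lost when any 1 of those 4 libraries was left out, and over 14 alternative settings its limma adjusted p ranged from 0.0215 to 0.254.

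In the middle of the Batf gene body, 11.5 kb from the start, an intron peak was strongest in Th9. Its normalised log2 fold enrichment was 2.88 and 2.90 for the Th9 libraries, 2.24 and 2.16 for Th2 and 2.30 and 1.96 for Th17. Th9 exceeded Th17 by 0.76 (SE 0.183, limma adjusted p = 0.0206) and Th2 by 0.69 (SE 0.183, limma adjusted p = 0.0489), and the groups did not overlap. Both calls were lost without either Th9 or either Th17 library, with limma adjusted p up to 0.277 and 0.342, and the second also without either Th2 library. Upstream, Batf had a pair of neighbouring distal regions that neither Th17 library called. The stronger was 16.0 kb upstream (chr12:85667802-85670632), at percentiles 93.2 and 88.2 in Th9, 69.4 and 80.9 in Th2, and not called in Th17. Its peak was 995 and 2622 bp wide in Th9 and 2292 and 2775 bp in Th2. Next to it, 19.8 kb upstream (chr12:85662903-85666878), the percentiles were 85.0 and 71.9 in Th9 and 47.6 and 63.6 in Th2. The strongest peaks there, 614 and 3571 bp wide in Th9 and 211 and 346 bp in Th2, had no base common to all. The percentiles of this second region thus do not compare a single site. These 2 regions were at higher percentiles in both Th9 than in both Th2 libraries. The share of all regions with this order was not worked out, and the difference was not tested. The third Batf region of this kind, 45.1 kb upstream and named after its values were seen, went the other way, at 49.5 and 68.2 in Th9 and 73.2 and 74.5 in Th2.

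Batf3, a shorter relative of Batf best known from dendritic cells, lies on chromosome 1 (191097847 to 191108945, plus strand) and its window held the most calls of the 10. Its promoter was at percentiles 93.5 and 92.5 for the Th9 libraries, 86.9 and 86.3 for Th2 and 78.5 and 77.2 for Th17, with no overlap between any of the 3 subsets. The normalised log2 fold enrichment there was 2.68 and 2.81 for the Th9 libraries, 2.1 and 2.22 for Th2 and 1.76 and 1.89 for Th17. Th9 exceeded Th17 by 0.92 (SE 0.180, limma adjusted p = 0.00592), while Th9 minus Th2 (0.58, limma adjusted p = 0.0890) and Th2 minus Th17 (0.34, limma adjusted p = 0.339) did not pass the threshold of 0.05. Just beyond the 3′ end of the gene, 12.4 kb from the start, the log2 fold enrichment was 3.33 and 3.27 for the Th9 libraries, 3.04 and 3.11 for Th2 and 2.20 and 2.29 for Th17. Th9 exceeded Th17 there by 1.06 (SE 0.166, limma adjusted p = 0.00149), which held under all 14 alternatives (limma adjusted p 0.000267 to 0.0394), and Th2 exceeded Th17 by 0.83 (SE 0.166, limma adjusted p = 0.00498). A second site 16.0 kb from the start gave 3.21 and 2.99 for the Th9 libraries, 2.95 and 3.28 for Th2 and 2.14 and 2.08 for Th17. Here Th9 and Th2 overlapped and exceeded Th17 by 0.99 (SE 0.180, limma adjusted p = 0.00389) and 1.00 (SE 0.180, limma adjusted p = 0.00238).

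The Batf3 intron region, 4.07 kb from the start, had log2 fold enrichments of 2.22 and 2.06 for the Th9 libraries, 1.86 and 2.22 for Th2 and 1.01 and 1.12 for Th17. Th9 exceeded Th17 by 1.07 (SE 0.197, limma adjusted p = 0.00415) and Th2 exceeded Th17 by 0.97 (SE 0.197, limma adjusted p = 0.00543). Of the 13 regions of the Batf3 window called in all libraries, 4 were thus higher in Th9 than Th17 and 3 higher in Th2 than Th17, with 0 lower in either, and the other 9 did not pass the threshold in any contrast. Apart from Th9 minus Th17 at 12.4 kb, each Batf3 call was lost without Th17 replicate 1, Th17 replicate 3 or both in turn, and Th2 minus Th17 at the intron also without Th2 replicate 3, with a highest limma adjusted p between 0.0503 and 0.0907. The core of the intron region, 300 bases about the middle of the bases that the peaks of all libraries shared, is printed because it held the AP-1 word at 2 places, the word that BATF and JUN pairs read. It is given 5′ to 3′ on the plus strand of GRCm38.p6, the assembly of mm10, from the RefSeq genome, with each match to TGANTCA on either strand in capitals.
Batf3 intron region, chr1:191103010-191103309: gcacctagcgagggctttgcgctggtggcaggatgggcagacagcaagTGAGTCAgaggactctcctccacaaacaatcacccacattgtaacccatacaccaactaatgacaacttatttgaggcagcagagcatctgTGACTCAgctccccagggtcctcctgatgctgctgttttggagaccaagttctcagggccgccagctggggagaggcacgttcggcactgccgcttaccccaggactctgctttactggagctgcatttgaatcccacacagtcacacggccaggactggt

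Irf4, the IRF partner induced with BATF in activated T cells, lies on chromosome 13 (30749226 to 30766976, plus strand). Its promoter was at percentiles 92.1 and 91.6 for the Th9 libraries, 87.1 and 84.8 for Th2 and 83.9 and 76.9 for Th17, so that the 3 subsets did not overlap. On the normalised log2 scale it was 2.52 and 2.73 for the Th9 libraries, 2.12 and 2.14 for Th2 and 2.0 and 1.88 for Th17. Th9 exceeded Th17 by 0.69 (SE 0.181, limma adjusted p = 0.0320), and the Th9 minus Th2 difference of 0.50 (SE 0.181, limma adjusted p = 0.148) was not called. A distal site 23.8 kb upstream gave 2.07 and 1.89 for the Th9 libraries, 1.73 and 1.23 for Th2 and 1.29 and 1.18 for Th17, with Th9 above Th17 by 0.75 (SE 0.198, limma adjusted p = 0.0342). Both calls were lost when either Th9 or either Th17 library was left out (limma adjusted p up to 0.262 and 0.288).

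The Irf4 window had 23 regions, the most of the 10 genes, of which 10 were called in all 6 libraries. Of its 4 regions called in Th9 and Th2 without Th17, the strongest lay 46.2 kb upstream in an intron of Dusp22 (chr13:30702078-30702978), at percentiles 88.7 and 90.8 in Th9 and 60.4 and 69.8 in Th2. Another lay over an exon of Irf4 3.64 kb from the start (chr13:30752865-30754403), at 78.8 and 71.5 in Th9 and 66.2 and 51.2 in Th2. These sites were at higher percentiles in both Th9 than in both Th2 libraries, an order that was not tested or counted over all regions. Downstream, 26.4 kb from the start (chr13:30775629-30776410), the percentiles were 73.5 and 67.2 in Th9 and 56.0 and 76.3 in Th2, and the subsets overlapped. The fourth, 32.6 kb from the start and named after its values were seen, was at 64.7 and 46.8 in Th9 and 63.3 and 76.0 in Th2. A site 54.8 kb from the start was called in Th2 alone (chr13:30804058-30805676), at 61.1 and 75.1. Also named after their values were seen, sites 28.4 and 46.1 kb from the start were at percentiles 74.6 to 84.4 in the Th9 and Th2 libraries. Each had a peak in only 1 Th17 library, at 30.5 in replicate 1 for the first and at 22.7 in replicate 3 for the second.

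A pair of Irf4 cores is printed because each held the AP-1 word together with letters of an IRF site. The first, 32.6 kb downstream, held GAAA directly before TGANTCA, a composite of the core of an IRF site with the AP-1 word, here on the minus strand. The second, 23.8 kb upstream, held the AP-1 word at 2 places and 1 IRF word, GAAA repeated after a gap of 2 bases. Matches on either strand are in capitals, and the sequences are on the plus strand of GRCm38.p6.
Irf4 downstream region, chr13:30782311-30782610: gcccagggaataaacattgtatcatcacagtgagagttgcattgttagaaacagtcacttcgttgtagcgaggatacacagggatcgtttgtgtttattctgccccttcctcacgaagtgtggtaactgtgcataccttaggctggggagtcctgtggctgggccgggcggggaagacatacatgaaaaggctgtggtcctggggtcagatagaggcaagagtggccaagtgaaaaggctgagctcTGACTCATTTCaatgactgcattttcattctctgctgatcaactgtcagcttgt
Irf4 upstream region, chr13:30725004-30725303: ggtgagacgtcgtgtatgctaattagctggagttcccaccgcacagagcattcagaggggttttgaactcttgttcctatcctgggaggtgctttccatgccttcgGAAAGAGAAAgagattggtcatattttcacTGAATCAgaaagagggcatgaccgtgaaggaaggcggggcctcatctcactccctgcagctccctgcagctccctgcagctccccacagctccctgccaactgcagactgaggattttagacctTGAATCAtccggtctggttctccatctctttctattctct

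Irf8, which can replace IRF4 at composite elements and is known for its role in myeloid and B cells, lies on chromosome 8 (120736358 to 120756694, plus strand). Its promoter was at percentiles 93.1 and 94.8 for the Th9 libraries, 90.3 and 89.9 for Th2 and 92.4 and 89.0 for Th17, and no contrast of it was called (limma adjusted p 0.243 to 0.724). A site 33.7 kb upstream, in an intron of Gm20388, had normalised log2 fold enrichments of 3.05 and 2.64 for the Th9 libraries, 2.06 and 2.11 for Th2 and 2.61 and 2.47 for Th17. Th9 exceeded Th2 there by 0.76 (SE 0.187, limma adjusted p = 0.0364), with Th17 lying between them. Leaving out Th9 replicate 1 or any of the Th2 and Th17 libraries ended this call (limma adjusted p up to 0.290).

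Among the JUN genes, which supply the partner that BATF needs, no region over their own promoters passed the threshold in any contrast (limma adjusted p 0.168 to 0.916). Jun, an immediate early gene on chromosome 4 (95049034 to 95052222, minus strand), had normalised differences of -0.08 for Th9 minus Th17 and -0.36 for Th9 minus Th2 (SE 0.163 for each). Junb on chromosome 8 (84974484 to 84978718, minus strand) was at promoter percentiles 97.6 and 96.9 for the Th9 libraries, 95.9 and 94.5 for Th2 and 96.0 and 93.4 for Th17. The Junb value fitted for Th17 came from a stronger peak elsewhere in the joined region, with fold enrichments of 9.72 and 7.50, and not from the promoter peak, at 8.33 and 6.30, so the Junb promoter peak itself was not tested against Th17. Jund on chromosome 8 (70698949 to 70700616, plus strand) was at 98.2 and 97.4 for the Th9 libraries, 95.5 and 95.4 for Th2 and 97.9 and 96.9 for Th17. The joined region at Jund also spanned the promoter of Iqcn. Both windows had calls at a neighbour's promoter: at that of Lsm4, 23.2 kb from Jund, Th2 was below Th17 by 0.65 (difference -0.65, SE 0.164, limma adjusted p = 0.0215), and at that shared by Asna1 and Trir, 46.2 kb from Junb, Th9 exceeded Th2 by 0.70 (SE 0.183, limma adjusted p = 0.0489). The first call was lost without any 1 of the Th2 and Th17 libraries and the second without any but Th2 replicate 1 (limma adjusted p up to 0.228 and 0.286).

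In the Jun window 2 distal regions were called in Th9 and Th2 without Th17. The stronger, 47.6 kb from the start beyond the 3′ end (chr4:95003871-95004639), was at percentiles 68.4 and 67.3 in Th9 and 81.3 and 78.0 in Th2, so both Th2 libraries were above both Th9 libraries. The other, 11.0 kb from the start and outside the naming rule, was at 79.7 and 36.7 in Th9 and 40.3 and 39.1 in Th2. The core of the stronger region is printed because, like the downstream region of Irf4, it held GAAA directly before TGANTCA, here on the plus strand, and a further AP-1 word. Capitals mark the matches on either strand, and the sequence is on the plus strand of GRCm38.p6.
Jun downstream region, chr4:95004033-95004332: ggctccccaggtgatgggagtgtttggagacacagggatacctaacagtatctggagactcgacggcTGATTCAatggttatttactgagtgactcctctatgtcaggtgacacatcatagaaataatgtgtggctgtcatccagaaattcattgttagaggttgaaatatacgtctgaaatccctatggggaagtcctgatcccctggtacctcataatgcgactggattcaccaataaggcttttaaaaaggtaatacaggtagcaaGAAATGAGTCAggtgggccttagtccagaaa

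Among the FOS genes, whose products compete with BATF for JUN partners, the promoters likewise gave no call (limma adjusted p 0.185 to 0.979). Fos on chromosome 12 (85473890 to 85477273, plus strand) was at promoter percentiles 93.8 and 89.1 for the Th9 libraries, 86.8 and 86.2 for Th2 and 87.9 and 88.9 for Th17. Fosl2 on chromosome 5 (32135801 to 32157842, plus strand) was at 97.7 and 95.5 for the Th9 libraries, 95.9 and 94.4 for Th2 and 98.4 and 93.8 for Th17. Fosl1 lies on chromosome 19 (5447547 to 5455946, plus strand). A distal site 25.9 kb upstream of Fos had normalised log2 fold enrichments of 2.63 and 2.80 for the Th9 libraries, 2.50 and 2.54 for Th2 and 1.99 and 1.83 for Th17. Th9 exceeded Th17 there by 0.81 (SE 0.178, limma adjusted p = 0.0125) and Th2 exceeded Th17 by 0.61 (SE 0.178, limma adjusted p = 0.0455). Leaving out either Th17 library ended both calls, as did leaving out Th9 replicate 3 for the first and either Th2 library for the second, with limma adjusted p up to 0.157 and 0.350. Near the downstream end of the Fosl2 window, 71.6 kb from the start, a region was called in Th9 alone, at percentiles 76.1 and 67.6.

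Over all 78 member regions, Th9 was higher than Th17 in 9 and lower in 1, beside 3.11% and 2.90% of the 50493 regions tested (6.01% in either direction). Th9 was higher than Th2 in 3 and lower in 0 (background 1.01% and 2.18%, 3.19% in either direction), and Th2 was higher than Th17 in 4 and lower in 3 (background 5.04% and 2.40%, 7.44% in either direction). The median log2 difference over the member regions was 0.19 for Th9 minus Th2 against 0.02 over all regions, 0.08 against -0.0012 for Th9 minus Th17, and -0.12 against -0.03 for Th2 minus Th17. The contrasts share libraries, so they are set side by side and not compared. Of the 10 calls between Th9 and Th17, 2 were still called without Th17 replicate 1 and 2 without Th17 replicate 3, 6 without Th9 replicate 1 and 5 without Th9 replicate 3, when 3 other regions were called. Of the 3 calls between Th9 and Th2, 0 were still called without Th9 replicate 1, Th2 replicate 3 or either Th17 library, and 1 without Th9 replicate 3 or Th2 replicate 1. Of the 7 between Th2 and Th17, 4 were still called without Th2 replicate 1, 3 without Th2 replicate 3, 2 without Th17 replicate 1 and 1 without Th17 replicate 3.

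**Figure D3:**
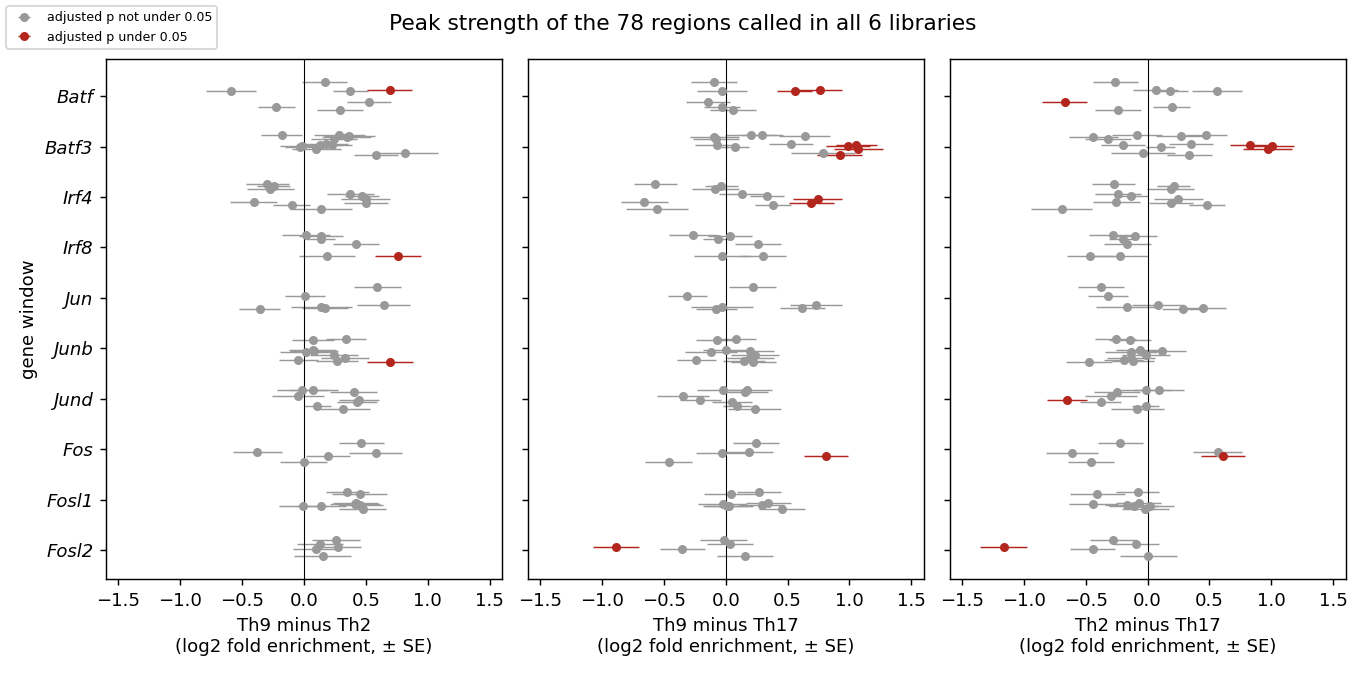
Each point is 1 of the 78 regions called in all 6 libraries, by gene window, with the difference in normalised log2 fold enrichment between subsets on the horizontal axis and bars of 1 SE. Red points had a limma adjusted p under 0.05, which was 3 regions for Th9 minus Th2, 10 for Th9 minus Th17 (of which 4 at Batf3) and 7 for Th2 minus Th17.

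In every library, peaks covered more of each member window than of the median gene window. Peaks lay over 17.3% to 24.2% of the Junb window and 12.9% to 25.2% of the Batf3 window, at the 98.1 to 99.0 and 96.0 to 99.0 percentile of all genes within a library. Junb was the most covered of the 10 in every library but Th2 replicate 3, where Irf4 and Batf3 were above it. The median gene window had 4.07% to 5.53%. The Batf window was covered to 8.71% and 13.9% for the Th9 libraries, 11.1% and 16.2% for Th2 and 5.80% and 6.85% for Th17, its rank among genes falling from 86.0 or more in Th9 and Th2 to 69.1 and 76.4 in Th17. For Irf4 the values were 14.0% and 16.2% for the Th9 libraries, 16.4% and 25.9% for Th2 and 10.8% and 12.0% for Th17. Both genes had less covered in each Th17 library than in any other. In all, 7 of 10 members had more covered in both Th9 than in both Th17 libraries (background 31.0% of genes) and 0 less (19.4%). More was covered in Th2 than Th17 at 8 of 10 (background 57.0%) and less at 0 (7.29%), and less in Th9 than Th2 at 3, Irf4, Jun and Fos (background 38.5%), with 0 more (6.30%). Fos, Fosl2 and Irf8 had 5.72% to 11.4% covered. With 2 libraries for each subset, an exact permutation test cannot give a p under 0.0667, so these lengths were not tested.

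**Figure D4:**
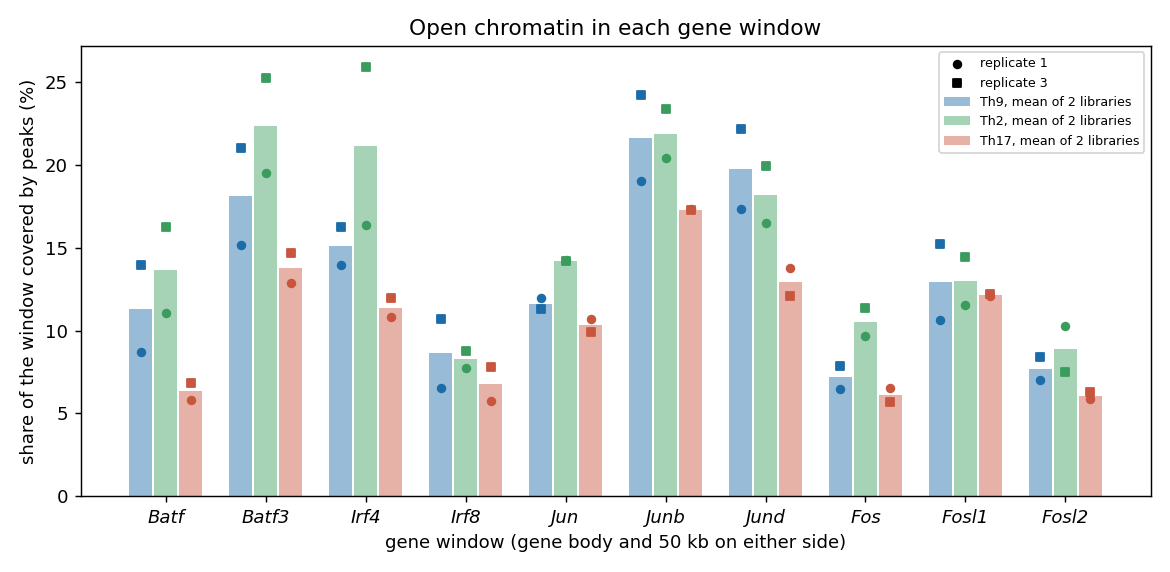
Bars give the mean share of each gene window under peaks, in percent, for 2 libraries of a subset (blue Th9, green Th2, red Th17), and points the libraries (circle replicate 1, square replicate 3). In the Batf, Batf3, Irf4, Jun, Junb, Jund and Fosl2 windows both Th17 libraries lie below both libraries of each other subset.

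The sequence words were also counted over all cores. The AP-1 word TGANTCA lay in 13 of the 51 distal member regions called in all libraries (25.5%), beside 15.8% of 37875 such regions of the genome. It lay in 5 of the 11 member regions of Th9 and Th2 without Th17 (45.5%), beside 25.2% of 4534. GAAA directly before TGANTCA, which contains the AP-1 word, lay in 2 of these 11 (18.2%), beside 1.21%, and in 0 of the 51. The composite with TTTC, a gap of 4 bases and then TGANTCA lay in 0 of either set, beside 0.904% and 0.356% of all such regions. The IRF word lay in 3 of the 51 (5.88%, beside 3.76%) and 0 of the 11 (beside 6.24%). All words were sought on both strands, and a match is a description of the letters and not of a bound site.

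Other genes of the same families were examined by the same rule, 16 in all: Batf2, Fosb, Jdp2, Atf3, Maf, Mafk, Bach1, Bach2, Nfe2l2, Nfil3, Irf1, Irf2, Irf3, Irf5, Irf7 and Irf9. A promoter peak was present in all libraries for 15 of them and in 0 libraries for Batf2. Their windows held 298 regions, and 283 remained once the regions shared with the Batf and Batf3 windows, at Jdp2 and Atf3, were set aside. Of the 283, 119 (42%) were called in all 6 libraries, beside 21.4% of all regions. In Th9 and Th2 without Th17 there were 10 (3.53%), beside 2% of all regions. Promoter regions are included here, so the matching member share is 11 of 149 (7.38%) and not the distal 9.09%. Among the 119, Th9 exceeded Th17 in 6 and was below it in 5 (background 3.11% and 2.90%). Th9 exceeded Th2 in 3 and was below it in 3 (background 1.01% and 2.18%). Th2 exceeded Th17 in 9 and was below it in 8 (background 5.04% and 2.40%). The promoter of Atf3, a stress-induced relative of the FOS genes, was stronger in Th9 than in Th17 by 1.05 (SE 0.187, limma adjusted p = 0.00350) and than in Th2 by 0.80 (SE 0.187, limma adjusted p = 0.0303). The Irf1 promoter was stronger in Th9 than in Th2 by 0.71 (SE 0.175, limma adjusted p = 0.0376), and a site 34.0 kb upstream of it by 1.04 (SE 0.196, limma adjusted p = 0.0111). That of Irf3 was lower in Th2 than in Th17 (difference -0.86, SE 0.183, limma adjusted p = 0.00748). These calls at other family genes were not repeated one by one under the alternative settings.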

How the data were processed

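ATAC-seq peak lists of 6 libraries were analysed, 2 each for Th9, Th2 and Th17. Per the methods and labels, the authors trimmed reads with Trim Galore 0.4.3, aligned them to mm10 with bowtie2 as concordant pairs, removed duplicates with Picard and set aside mitochondrial and low-quality alignments. Broad peaks were called for each library with MACS2 2.1.0 on whole fragments, without an input or local background. A shift for the Tn5 cut offset was not stated. The deposited columns used were position, the fold enrichment over background (a ratio), and p-values and q-values as −log10. The deposited lists hold no read counts, so depth was worked out from the fold enrichment and p-value of flat peaks and the length of the shortest peak.

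The 10 genes, the 16 other family genes, the marker lists and the sequence words were chosen with earlier results of these data known. Genes came from GENCODE M21, and promoter and genome sequences from RefSeq (GRCm38.p6), whose chromosome lengths held all peaks. Of the 10 genes, 9 matched a RefSeq promoter sequence. Any overlap of at least 1 bp between a peak and a region counted as a call. Fold enrichment was turned into a percentile within its own list. For regions called in all 6 libraries, the log2 fold enrichment of the strongest peak was quantile normalised and fitted with limma 3.58.1 (R 4.3.3, 1 fit over 6 libraries, trended variance), with Benjamini-Hochberg adjustment over all 50493 regions and a threshold of 0.05. On simulated data for Th9 minus Th17 with these 50493 regions, 100 of 100 planted log2 differences of 1.5 and 93 of 100 of 1 were recovered, with 16 false calls. The simulated noise was normal and independent, with the variance of the fit itself. Differences below 1, as most of those named were, were not planted, so their recovery is not known. Tables were made with pandas 2.3.3 and numpy 2.4.6. Regions named were those over the member promoters, up to 8 called regions per contrast by size of difference, and up to 8 regions by mean percentile that were called in both libraries of 1 or 2 subsets only. A few genes and 1 called region that these rules would take in are not reported here. Alternatives were flanks of 25 and 100 kb, limits of 5 on −log10 q or of 4 on fold enrichment, equal list lengths, 50% of a region covered, 1 kb bins, other promoter limits, other scalings, each contrast on its own libraries, a replicate block and each library left out.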

Additional observations from a re-analysis of the deposited data

How the results depend on the processing

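The labels give all subsets the replicate numbers 1 and 3 and do not say whether a number marks a shared mouse or culture. The correlation of replicate differences over 50493 regions was 0.207 for Th9 with Th2, 0.00984 for Th9 with Th17 and 0.000962 for Th2 with Th17. These values cannot show whether libraries of the same number were paired. With a replicate block the counts of member regions that differed were 4 for Th9 minus Th2, 14 for Th9 minus Th17 and 9 for Th2 minus Th17, against 3, 10 and 7 without it. For most settings here and below, no share of all regions stands beside the count. A change in such a count may follow one over all regions and is not read as particular to the members. Of 17 named calls, all kept their direction under every alternative run and 1 was called under every one, Th9 minus Th17 at 12.4 kb from Batf3. Leaving out a library leaves its subset with 1, assumed to vary like the others, and gave 0 to 4, 2 to 14 and 1 to 8 calls.

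Th9 minus Th2 had 6 calls with median centring, 0 with normal scores of percentiles, 1 with a width-weighted mean fold, 1 in 1 kb bins (lower in Th9) and 0 on its own 4 libraries. Th9 minus Th17 had 3 with normal scores, 18 with absent peaks set to the lowest fold and 18 in 1 kb bins. Th2 minus Th17 had 11 with absent peaks set to the lowest fold and 13 in 1 kb bins. Over all 50493 regions, calls higher and lower for Th9 minus Th2 were 511 and 1100, against 1054 and 969 with median centring, which moved the median difference over all regions to 0.12 for Th9 minus Th2 and to -0.10 for Th2 minus Th17, and 16 and 112 with normal scores. With normal scores Th9 minus Th17 had 575 higher and 214 lower, against 1572 and 1462, and Th2 minus Th17 had 1389 and 144, against 2546 and 1210.

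Regions called in all libraries numbered 49 with 25 kb flanks, 125 with 100 kb, 47 with a −log10 q of at least 5, 23 with a fold of at least 4, 34 with 50% of the region covered and 172 in 1 kb bins, and 78 to 81 with a library left out. Regions of Th9 and Th2 without Th17 numbered 4 with a fold of at least 4 and 24 in 1 kb bins, and 8 to 15 under the other settings. Regions of Th9 and Th17 without Th2 numbered 1 with 100 kb flanks and 0 to 1 with a library left out. Regions of Th2 and Th17 without Th9 numbered 4 with 100 kb flanks, 3 with the q limit, 0 with the fold limit, 2 in 1 kb bins and 1 to 3 with a library left out. Regions of 1 subset alone, 5 in all, numbered 1 with 25 kb flanks, 12 with 100 kb, 3 with the q limit, 3 with the fold limit, 8 with 50% covered, 12 in 1 kb bins and 6 to 21 with a library left out. Promoters called in all libraries numbered 6 with the fold limit. The cause of these changes was not tested, except that flanks and bins change how many regions are counted.

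Some promoter differences that were not called changed sign. Th9 minus Th17 became 0.0794 at Jun and 0.117 at Fosl2 with median centring, and -0.0831 at Fosl1 with the width-weighted mean. With a library left out, the Fosl1 difference ran from -0.0746 to 0.145 (Th9 minus Th17), -0.00503 to 0.272 (Th9 minus Th2) and -0.245 to 0.0335 (Th2 minus Th17). That of Fosl2 ran from -0.295 to 0.260 (Th9 minus Th17) and -0.555 to 0.00152 (Th2 minus Th17). Depth limits weak peaks most in Th9 replicate 1, where no peak below a fold of 2.11 was listed, and a region not listed is not shown to be closed.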
